A study of Mus musculus with 6 samples.

Results

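The genes described here encode the ligands, receptors, secreted inhibitors and feedback regulators of Wnt signaling, measured in fibroblasts of the mouse synovium, the tissue that lines joints. Members were chosen by symbol as the genes of the Wnt, Frizzled (Fzd), Sfrp, Dkk and Rspo families in the count table, together with 17 named receptors, inhibitors and feedback genes, which gave 54 of its 24348 genes. All 6 libraries were made from flow-sorted synovial fibroblasts of C57BL/6 mice. The 3 IC libraries came from mice injected intravenously with immune complexes (IC), here ovalbumin bound by rabbit anti-ovalbumin antibody per the study's methods, and the 3 vehicle libraries from control mice. The study asked how fibroblasts respond to such a challenge. The study's methods give young adult mice of both sexes for its experiments as a whole, and the labels give neither for these libraries. The time between injection and collection and the sort gate are not given in the sources used here, and the labels do not state whether 1 mouse gave each library, so p-values measure only the spread between these libraries.

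Wnt proteins are secreted, lipid-carrying ligands that bind Frizzled receptors on the cell surface. Together with the co-receptors Lrp5 and Lrp6 they stabilize beta-catenin, which joins TCF/LEF factors on DNA, and through Ror and Ryk receptors they act on cell shape and movement without beta-catenin. Sfrp proteins, Frzb and Wif1 capture Wnt outside the cell, the Dkk family and sclerostin (Sost) act on Lrp5 and Lrp6, and R-spondins acting with Lgr receptors protect Frizzled from the ubiquitin ligases Znrf3 and Rnf43. In joints the pathway is known for its part in the upkeep of cartilage and bone.

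Of the 54 members, 49 had at least 10 counts in at least 3 libraries and were tested. Rspo4, Sost, Wnt7a, Wnt8a and Wnt9b were below this minimum, with means of 2.77 to 5.87 normalized counts (counts divided by the library's size factor). Dkk1, Dkk4, Wnt3a and Wnt8b belong to the same families but had no row in the count table. Every gene in that table had counts in at least 3 libraries. DESeq2 called 4 members at an adjusted p under 0.05, and all 4 were lower after IC: the ligands Wnt5a and Wnt4, and the secreted Wnt-binding inhibitors Sfrp5 and Frzb. This was 8.16% of the 49 tested members, against 2.1% of the 19925 tested genes called in either direction and 1.07% called lower. These shares compare genes of unlike level, since 11 of the 49 members and 6490 of the 19925 genes had a mean under 100 normalized counts. No member was called higher, and 5 members had an unadjusted p under 0.05 in that direction. Without vehicle replicate 1 the calls were 3 higher and 5 lower. The tested members divided into 25 higher and 24 lower, with a median log2 fold change (IC over vehicle) of 0.00 against 0.00 over all tested genes. At an unadjusted p under 0.05, DESeq2 had 14 of the 49 members (5 higher and 9 lower), against 9.8% of all genes. The 3 IC values lay wholly apart from the 3 vehicle values for 13 members, or 26.5% of those tested, against 15.8% of all genes. Of these 13, 5 were above and 8 below vehicle. The calls depended on the test: with the quasi-likelihood test of edgeR 0.186% of all genes were called and 0 members, the lowest adjusted p of a member being 0.0856 (Wnt5a), although 14 members had an unadjusted p under 0.05.

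Total counts per library were 40114331 to 56714304. The cells carried fibroblast transcripts throughout, with the 8 fibroblast markers (such as Col1a1, Pdgfra and Pdpn) summing to 43865 to 45574 CPM (counts scaled to the library total) in IC libraries and 45059 to 54803 in vehicle libraries. Markers of other cell types were also present and several moved with treatment. Summed CPM for 13 skeletal muscle markers were 24.5 to 59.7 after IC and 59.6 to 137 after vehicle, for 7 endothelial markers 183 to 238 and 241 to 281, for 8 Schwann and perineurial markers 143 to 203 and 206 to 280, and for 5 lining fibroblast markers 430.3 to 546 and 268 to 394. DESeq2 called 2 of the fibroblast markers (Col3a1 and Lum), both lower after IC. Of the muscle, endothelial and Schwann cell markers it called 3, 2 and 3, all lower. Of the lining list it called Prg4 higher and Clic5 and Tspan15 lower. The lining sum was mostly Prg4, and the list had 2 positive and 3 negative log2 fold changes with a median of −0.21. Summed CPM were 490.0 to 589 and 571 to 622 for 7 mural cell markers (Myh11 called lower), 31.5 to 49.5 and 38.2 to 50.2 for 5 macrophage markers, and 1.48 to 3.11 and 1.76 to 3.77 for 4 adipocyte markers, with 0 macrophage and 0 adipocyte markers called by DESeq2 and 0 at an unadjusted p under 0.05. The part of these shifts in the member results below was not tested, and in bulk RNA fewer cells of a type and less RNA per cell cannot be told apart.

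**Figure D1:**
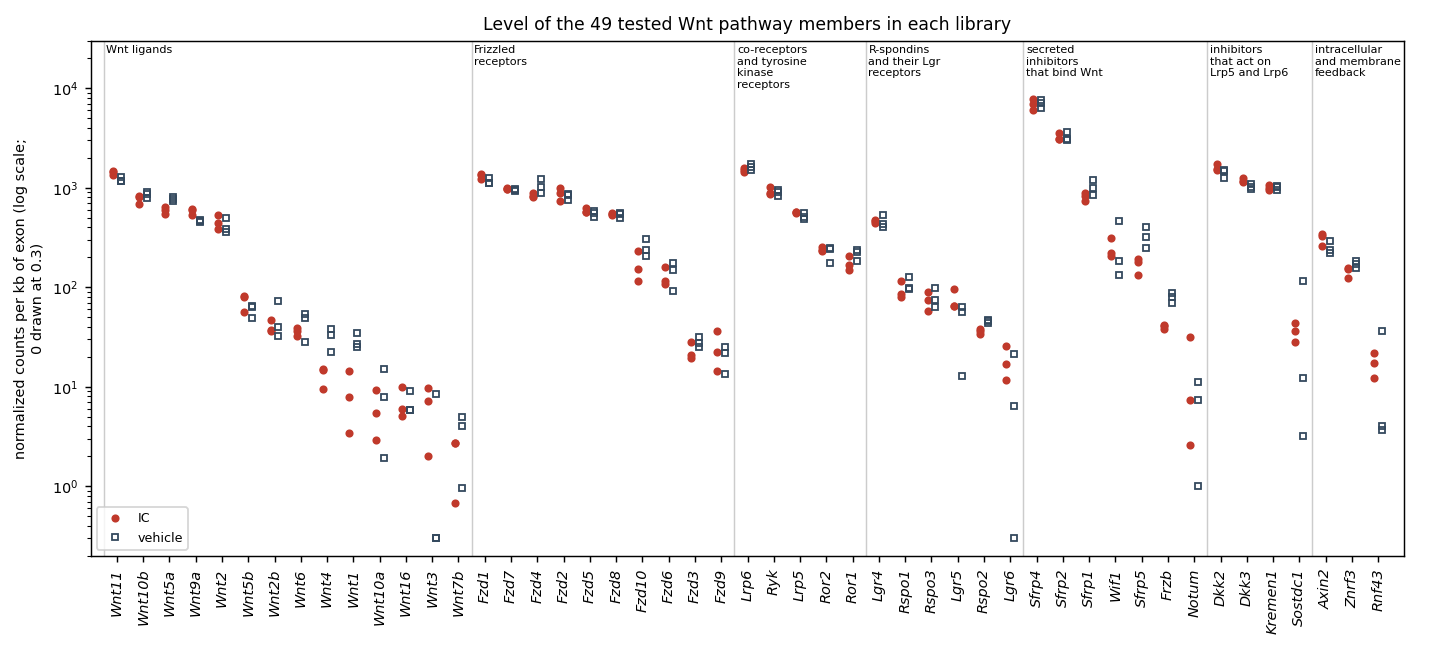
Level of each of the 49 tested members in each library, in normalized counts per kilobase of exon on a log scale, with members grouped by role and ordered by mean level. Filled circles are the 3 IC libraries and open squares the 3 vehicle libraries; Sfrp4 stands highest with a mean of 6961, and values of 0 are drawn at 0.3.

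Per kilobase of exon, the scale on which levels of different genes can be compared, the secreted inhibitors Sfrp4 and Sfrp2 stood highest. Sfrp4, which captures Wnt, had a mean of 6961 normalized counts per kilobase over the 6 libraries, followed by Sfrp2 with 3242, the co-receptor Lrp6 with 1569.8, Dkk2 with 1505 and Wnt11 with 1313. The Wnt-binding inhibitors summed to 2.72, 2.75 and 3.09 times the level of all ligands in the IC libraries and to 2.80, 3.35 and 2.91 times in the vehicle libraries, so the groups overlapped. Sfrp4 made up a mean of 59.5% and Sfrp2 27.7% of the inhibitor sum. Of the 49 tested members, 23 had a mean of at least 1000 normalized counts and 11 a mean under 100.

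Among the ligands, DESeq2 called 2 of the 14 tested, both lower, and the median log2 fold change of the group was −0.20. Wnt5a (chromosome 14, 28504750 to 28527448, GRCm38), the best known ligand of the branch that does not use beta-catenin, had 4679.9, 4276 and 4983 normalized counts in IC replicates 1 to 3 and 6095, 6359 and 5802 in vehicle replicates 1 to 3. Every IC library was below every vehicle library. The means of 4646 ± 355 and 6086 ± 278 (SD, n = 3 each) gave a log2 fold change of −0.39 (standard error, SE, 0.089), for which DESeq2 gave an adjusted p of 0.00139. In all 6 fits that left out 1 library Wnt5a was called (adjusted p 0.000307 to 0.0258), and it was not called with edgeR (0.0856) or limma-voom. Exons of Wnt5a share 4.58% of their bases with Gm2670 on the opposite strand, and the strand setting used in counting is not stated.

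Wnt4 (chromosome 4, 137277489 to 137299726), a ligand known from kidney and gonad development, was much less abundant, at a mean of 22.3 normalized counts per kilobase of exon against 686 for Wnt5a. It had 62.8, 40.3 and 61.8 normalized counts after IC and 139, 162 and 94.8 after vehicle. The groups did not overlap, although vehicle replicate 3 was nearer to the IC values than the other vehicle libraries. The means of 55.0 ± 12.7 and 132 ± 34.0 (SD, n = 3 each) gave a log2 fold change of −1.26 (SE 0.393), for which DESeq2 gave an adjusted p of 0.0496 and edgeR one of 0.202. Wnt4 was the least secure of the 4 calls, since it was kept in 2 of 14 alternatives, those with TMM factors (adjusted p 0.0464) and without vehicle replicate 3 (0.0285).

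The most abundant ligand per kilobase, Wnt11 (chromosome 7, 98835112 to 98855195), also acts mainly outside the beta-catenin branch. It had 6066, 6019.6 and 5534 normalized counts after IC and 4852, 4843 and 5278 after vehicle. All IC libraries were above all vehicle libraries, yet the log2 fold change of 0.24 (SE 0.084) had an adjusted p of 0.127 by DESeq2. Wnt9a (chromosome 11, 59306928 to 59333552), a ligand with a known role in joint formation, had 1996, 1776 and 2023 after IC and 1595, 1529 and 1498 after vehicle. Its groups did not overlap either, with a log2 fold change of 0.33 (SE 0.108) and an adjusted p of 0.0793, which fell to 0.0496 without IC replicate 2 and to 0.0497 without vehicle replicate 1. Wnt10b (chromosome 15, 98770712 to 98778150), a beta-catenin ligand known for promoting bone formation, had 2822, 2329.7 and 2718 after IC and 3055, 2665 and 2956 after vehicle. The groups overlapped, and the 95% interval of its log2 fold change was −0.35 to 0.07.

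**Figure D2:**
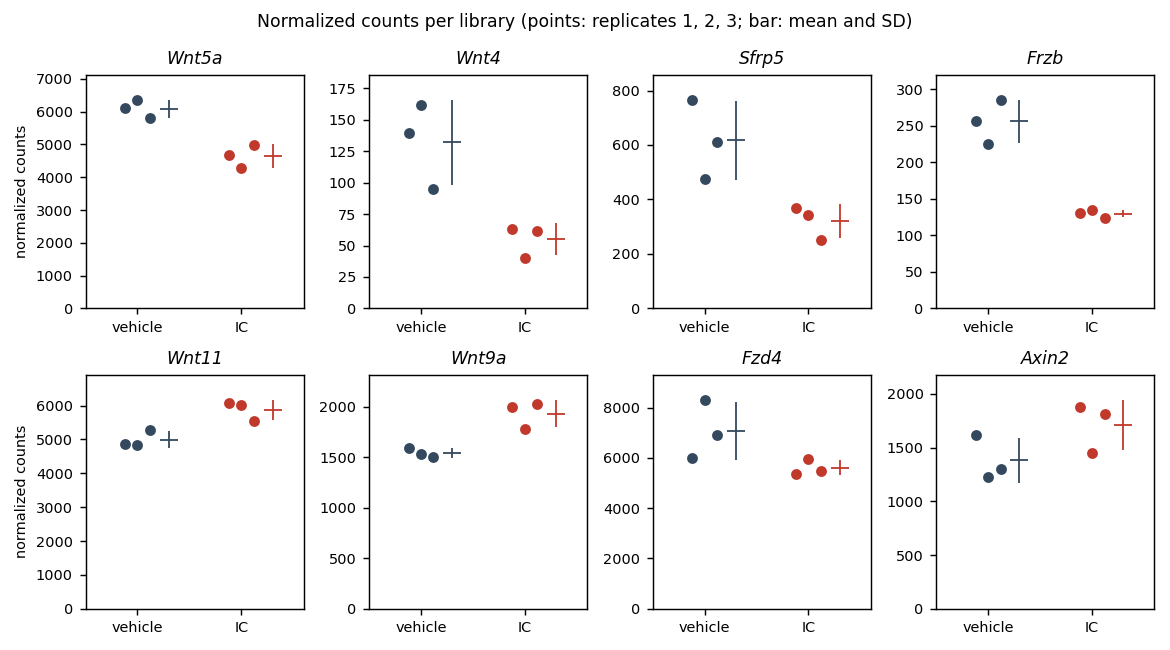
Normalized counts in each library for 8 members, with points for replicates 1 to 3, the horizontal bar at the group mean and the vertical bar spanning 1 SD either way; each axis starts at 0. In the upper row Wnt5a, Wnt4, Sfrp5 and Frzb passed the threshold and lie lower after IC, and in the lower row Wnt11 and Wnt9a lie above vehicle and Fzd4 below it without passing, while the values of Axin2 overlap.

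A few ligands held most of the ligand level. By level per kilobase, Wnt11 held a mean of 33.0% of the summed ligand level over the 6 libraries, Wnt10b 20.3%, Wnt5a 17.2%, Wnt9a 13.1% and Wnt2 10.9%. Wnt5a held 14.4%, 14.4% and 15.5% after IC and 19.6%, 21.1% and 18.5% after vehicle. Wnt11 held 35.2%, 38.3% and 32.6% after IC and 29.6%, 30.4% and 31.7% after vehicle, and Wnt9a 14.4%, 14.0% and 14.8% against 12.1%, 11.9% and 11.2%. Wnt10b, whose counts overlapped, held 19.9%, 18.0% and 19.5% after IC and 22.6%, 20.3% and 21.6% after vehicle. For these ligands, and for the small shares of Wnt4 and Wnt1, the shares of the groups did not overlap. The summed ligand level did overlap, at 3799 to 4161 normalized counts per kilobase after IC and 3855 to 4018 after vehicle. Shares of one sum are tied to each other, so these are a description of the same counts and were not tested.

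**Figure D3:**
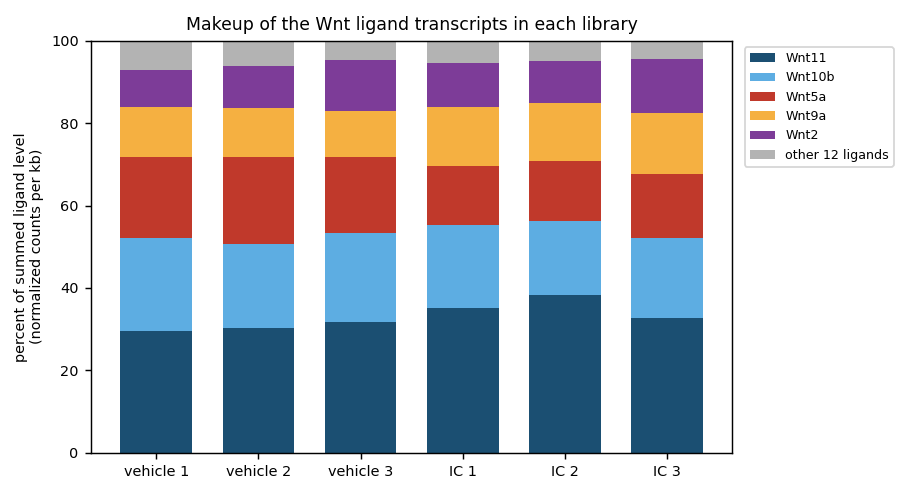
Share of the summed Wnt ligand level held by each ligand in each library, as a percent of normalized counts per kilobase of exon; each stacked bar is 1 library and reaches 100%. Wnt5a takes 18.5% to 21.1% in vehicle libraries and 14.4% to 15.5% in IC libraries.

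The other tested ligands were Wnt2, with means of 1027 after IC and 932 after vehicle, and Wnt1, Wnt2b, Wnt3, Wnt5b, Wnt6, Wnt7b, Wnt10a and Wnt16, with overall means of 13.2 to 186 normalized counts. Wnt1, whose values were singled out after they were seen, had 34.2, 8.27 and 18.8 after IC and 64.0, 82.2 and 59.6 after vehicle. The groups did not overlap, and the log2 fold change was −1.75 (SE 0.596, adjusted p 0.0929 by DESeq2). Wnt1 lies 11.7 kb from Wnt10b on chromosome 15, which had the overlapping values given above. DESeq2 gave no adjusted p to Wnt3, Wnt7b, Wnt10a and Wnt16 because of their low counts, so no call could be made for them. Wnt3 had 0 counts in vehicle replicates 2 and 3, which allows up to 2.83 and 3.65 normalized counts (3 counts per library, counting error only).

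Among the Wnt-binding inhibitors, DESeq2 called 2 of the 7 tested, both lower. Sfrp5 (chromosome 19, 42197971 to 42202252), a secreted decoy for Wnt5a among other ligands, had 368, 344 and 251 normalized counts after IC and 767, 475 and 610.4 after vehicle. All IC values were below all vehicle values, with vehicle replicate 1 the highest. The means of 321 ± 61.9 and 617 ± 146 (SD, n = 3 each) gave a log2 fold change of −0.95 (SE 0.222), for which DESeq2 gave an adjusted p of 0.0022 and edgeR one of 0.102. The call held in all 6 fits without 1 library, with adjusted p of 0.000399 to 0.0433.

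Frzb (chromosome 2, 80411970 to 80447625), also called Sfrp3 and known for its expression in developing and articular cartilage, had 131, 134 and 125 normalized counts after IC and 257, 226 and 286 after vehicle. The IC libraries were close together and all lay far below the vehicle libraries. The means of 130.02 ± 4.998 and 256 ± 30.0 (SD, n = 3 each) gave a log2 fold change of −0.98 (SE 0.255), for which DESeq2 gave an adjusted p of 0.00894 and edgeR one of 0.0985. The call was lost without vehicle replicate 3 (0.063) and held in the other 5 such fits. Frzb is also expressed in cartilage and bone cells. Of the 5 tested markers of these cells, 4 had a negative log2 fold change and 1 a positive one, with a median of −0.63. That median is the value of Matn3. Matn3 and Sp7 were near the floor, with means of 13.3 and 8.35 normalized counts and no adjusted p. Sox9, also among the negative ones, was at −0.00236. The positive one was Acan, the cartilage proteoglycan, which was called higher after IC (log2 fold change 1.34, adjusted p 0.0029 by DESeq2). Col2a1, the main cartilage collagen, had a log2 fold change of −0.75 with groups apart and an adjusted p of 0.107. The sum of the 8 markers, mostly Sox9, overlapped between groups at 52.2 to 56.5 CPM after IC and 45.8 to 62.2 after vehicle, and their part in the values of Frzb was not tested.

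Both of the most abundant members of this family had fold changes near 0. Sfrp4 had 29339, 25049 and 32675 normalized counts after IC and 26178, 31792 and 29512 after vehicle, and the 95% interval of its log2 fold change was −0.21 to 0.19. Sfrp2 had 6724, 6576 and 7655 after IC and 6562, 7731 and 6625 after vehicle, with an interval of −0.19 to 0.19; 16.1% of its exon bases are shared with Gm26771 on the opposite strand. In both genes the groups overlapped fully, and the sign of the fold change turned when single libraries were left out. Sfrp1, the next in abundance, had overlapping groups and a log2 fold change of −0.32 (95% interval −0.57 to −0.08, adjusted p 0.173). Wif1 overlapped as well, with an adjusted p of 0.99, and Notum, the enzyme that strips the lipid from Wnt, had 2.43 to 75.5 normalized counts and no adjusted p. Sfrp5 and Frzb together were a small part of the inhibitor level, Sfrp5 holding 1.04% to 1.74% of it after IC and 1.94% to 3.63% after vehicle.

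**Figure D4:**
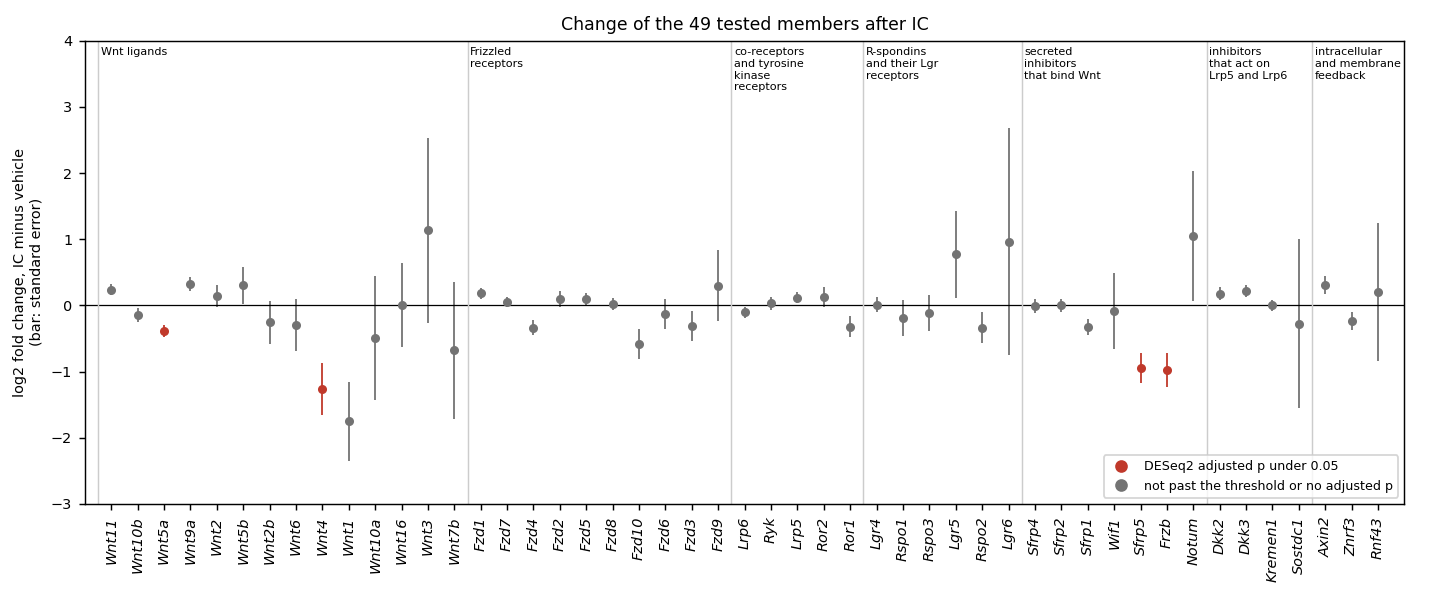
Log2 fold change (IC over vehicle) of the 49 tested members, grouped by role in the same order as the plot of levels, with bars of 1 standard error. Wnt5a (−0.39), Wnt4 (−1.26), Sfrp5 (−0.95) and Frzb (−0.98) passed an adjusted p of 0.05 with DESeq2; bars are longest for members with low or variable counts, such as Lgr6, Wnt3 and Sostdc1.

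The called members Wnt4 and Sfrp5 are shown with the stretch of DNA just before their annotated starts, where their base composition differs. RefSeq promoter windows (250 bases before a start, GRCm38.p6) were matched for 34 of the 54 members, giving 38 windows. The letters shown lie before both the RefSeq and the GENCODE start. Of the other called members, Wnt5a had no window and was not searched. Frzb is not shown because only 21 bases of its window lie before both starts.
Wnt4 (chr4:137277385-137277488, plus strand, 104 bases): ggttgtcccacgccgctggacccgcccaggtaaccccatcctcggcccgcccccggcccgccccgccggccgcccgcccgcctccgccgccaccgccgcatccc
Sfrp5 (chr19:42202253-42202502, minus strand, 250 bases): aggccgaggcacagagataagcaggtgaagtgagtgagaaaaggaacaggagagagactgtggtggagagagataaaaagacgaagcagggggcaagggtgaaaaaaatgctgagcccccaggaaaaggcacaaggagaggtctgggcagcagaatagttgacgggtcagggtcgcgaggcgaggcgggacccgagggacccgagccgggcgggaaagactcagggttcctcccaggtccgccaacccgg
The full 250-base window of Wnt4 was 85.2% G and C, more than in 99.9% of all 32851 windows, while those of Sfrp5 (59.6%) and Frzb (64.4%) were nearer to the median of 52.4%. Of the 250 bases of Wnt4, 104 lie before the GENCODE start and the rest lie within the annotated gene. Both strands were searched for the TCF/LEF motif CTTTGA, the STAT motif TTCNNNGAA and the NF-kB motif. None of them was in the windows of Wnt4 and Sfrp5, so no letters are in capitals. The window of Frzb held 1 TCF/LEF and 1 STAT match, which did not overlap each other. Both matches lie within the annotated GENCODE gene, and the 21 bases before its start held 0 of either. The TCF/LEF motif was in 5 of the 38 member windows (13.2%) against 13.8% of all windows, the STAT motif in 5.26% against 7.02% and the NF-kB motif in 5.26% against 5%. A match of letters is a description and not a bound site.

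Of the 10 Frizzled receptors, all were tested and DESeq2 called 0, with 3 at an unadjusted p under 0.05, as also with edgeR. Fzd1, the most abundant per kilobase with a mean of 1239.5, had 5143, 5662 and 5782 normalized counts after IC and 4687, 4724 and 5216 after vehicle. Its log2 fold change of 0.18 had a 95% interval of 0.01 to 0.36 and an adjusted p of 0.39, with IC replicate 1 below vehicle replicate 3. Fzd7 had 4462, 4353 and 4435 after IC and 4191, 4257 and 4369 after vehicle, with an interval of −0.11 to 0.20. Fzd4, which is also the receptor for norrin in vessels, was the Frizzled gene whose groups stood apart, with 5379.6, 5950.4 and 5498 after IC and 6004, 8309 and 6917 after vehicle. IC replicate 2 and vehicle replicate 1 nearly met, and the log2 fold change of −0.34 (SE 0.111) had an adjusted p of 0.0797, which became 0.000977 without vehicle replicate 1. The summed endothelial markers, given above, were lower after IC in the same direction as Fzd4, and their part in its values was not tested. The other 7 Frizzled genes had means of 51.2 (Fzd9) to 3946 (Fzd5) and overlapping groups.

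Of the 5 co-receptors and receptor kinases DESeq2 called 0, with 1 (Ror1, adjusted p 0.386) at an unadjusted p under 0.05, and no gene had groups apart. Lrp6, needed for beta-catenin signaling, had 21773, 20451 and 19837 normalized counts after IC and 20727, 23779 and 22205 after vehicle, with a 95% interval of the log2 fold change of −0.26 to 0.05. Ryk, a receptor with a Wnt-binding domain and an inactive kinase, had 3899.7, 4037 and 4567 after IC and 3749.6, 4340.4 and 4106 after vehicle, with an interval of −0.16 to 0.23. The libraries of both groups thus intermingled. Lrp5, Ror1 and Ror2 had means of 983 (Ror2) to 5277 (Lrp5) and adjusted p of 0.386 to 0.878. Ror2, a receptor for Wnt5a, gave an interval of −0.17 to 0.43.

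Of the 6 tested R-spondins and Lgr receptors DESeq2 called 0, and none had an unadjusted p under 0.05 with DESeq2 or edgeR. Lgr4, the abundant receptor of this group at a mean of 457 normalized counts per kilobase, had 2576, 2741 and 2782 normalized counts after IC and 3098, 2369 and 2555 after vehicle. Rspo1 had 224, 156 and 166 after IC and 191, 185 and 246 after vehicle. Both overlapped, with 95% intervals of the log2 fold change of −0.21 to 0.24 for Lgr4 and −0.72 to 0.35 for Rspo1. Rspo2 had 174, 195 and 187 after IC and 241, 237 and 225 after vehicle. All 3 IC values were below vehicle, but at this depth the interval of −0.80 to 0.13 was wide and the adjusted p was 0.69. Rspo3 overlapped, with an adjusted p of 0.957.

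Lgr5, a Wnt target and stem cell marker in several epithelia, had 985, 665 and 666 normalized counts after IC and 579, 131 and 648 after vehicle. The groups did not overlap, but vehicle replicate 2 was far below the other 5 libraries, and the log2 fold change of 0.77 (SE 0.663) had an adjusted p of 0.791 by DESeq2. Lgr6, Sostdc1 and Rnf43, named after their values were seen, also varied widely between vehicle libraries, in another pattern. Lgr6 had 147, 0 and 43.8 in vehicle replicates 1 to 3, Sostdc1 207, 5.67 and 21.9, and Rnf43 239, 26.4 and 24.3, against 80.6 to 176, 50.6 to 78.9 and 80.4 to 142 after IC. Vehicle replicate 1 was the highest of the vehicle libraries in all 3 genes, whereas for Lgr5 it was replicate 3. The 0 counts of Lgr6 in vehicle replicate 2 allow up to 2.83 normalized counts. Summed CPM of 8 epidermal markers (Krt5, Krt14, Krt15, Krt17, Epcam, Cdh1, Trp63 and Dsp, a list chosen after the values were seen) were 101, 17.6 and 50.2 in vehicle replicates 1 to 3 and 51.5 to 68.1 after IC. All 8 were above 0 in every library, DESeq2 called 0 of them, and their part in the values of these members was not tested. With all libraries Sostdc1 and Rnf43 had an adjusted p of 0.981 and 0.982, and without vehicle replicate 1 both were called higher after IC.

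Of the 4 tested members that act on Lrp5 and Lrp6, DESeq2 called 0, with 1 at an unadjusted p under 0.05. Dkk2 had 5756, 5619 and 6361 normalized counts after IC and 4652, 5567 and 5489.8 after vehicle. Dkk3, a divergent member of the Dkk family that binds Lrp5 and Lrp6 weakly if at all, had 3954, 3860.5 and 4222 after IC and 3456, 3281 and 3643 after vehicle. In both genes all IC libraries were above all vehicle libraries, with Dkk2 separated by a narrow gap. The log2 fold changes of 0.18 for Dkk2 (95% interval −0.01 to 0.37) and 0.21 for Dkk3 (0.04 to 0.39) had adjusted p of 0.51 and 0.25. Kremen1, a receptor for Dkk proteins, had means of 7792 ± 443 and 7765 ± 396 (SD, n = 3 each), and an interval of −0.16 to 0.17. Sostdc1 was described above.

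The feedback genes Axin2, Znrf3 and Rnf43 are switched on by beta-catenin in many tissues and restrain the pathway. DESeq2 called 0 of the 3, with 1 at an unadjusted p under 0.05. Axin2, part of the complex that degrades beta-catenin, had 1875, 1446 and 1813 normalized counts after IC and 1619, 1229.8 and 1296 after vehicle. IC replicate 2 fell below vehicle replicate 1, and the log2 fold change of 0.31 (95% interval 0.03 to 0.59) had an adjusted p of 0.349. Znrf3, a ligase that removes Frizzled from the membrane, had 981, 1214 and 1234 after IC and 1356, 1459 and 1238 after vehicle. All IC libraries were lower, with IC replicate 3 and vehicle replicate 3 almost equal, and the log2 fold change of −0.24 (−0.50 to 0.02) had an adjusted p of 0.521. The point estimates for Axin2 and Znrf3 thus lay on opposite sides of 0.

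**Figure D5:**
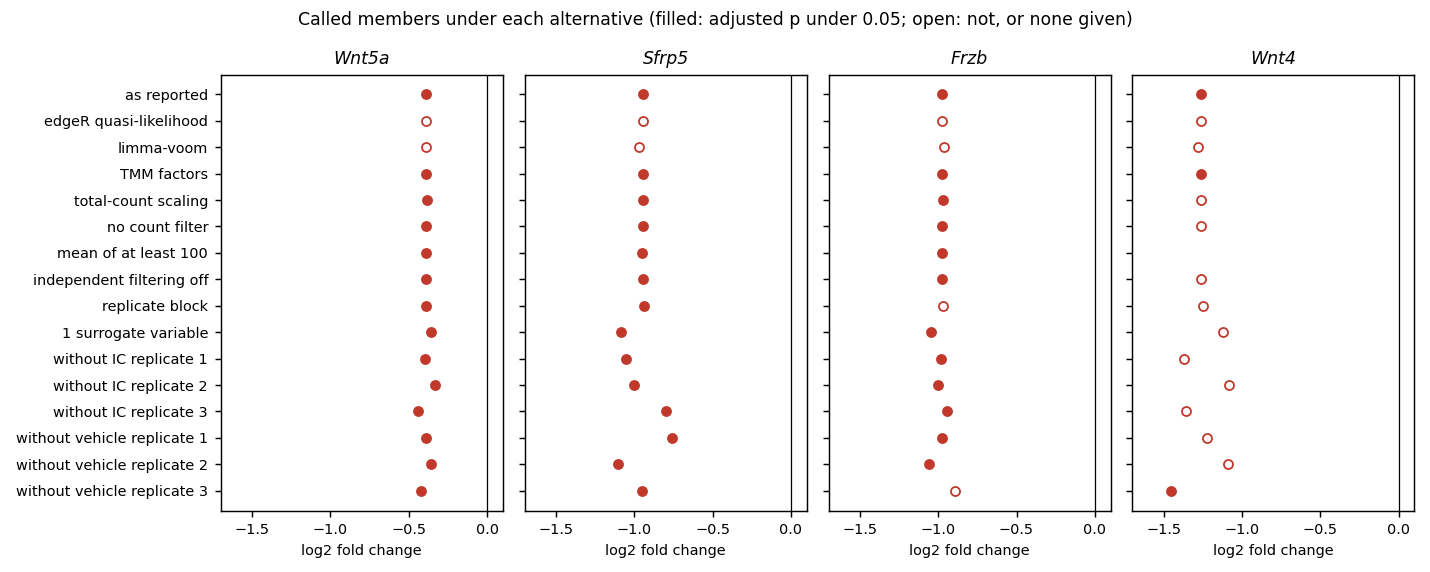
Log2 fold change of Wnt5a, Sfrp5, Frzb and Wnt4 under each way of processing, with filled points where the adjusted p was under 0.05 and open points where it was not. All 4 genes stay below 0 in every fit, Wnt5a and Sfrp5 keep the call in 13 of 15 alternatives, Frzb in 11 of 15 and Wnt4 in 2 of 14, and with edgeR and limma-voom no point is filled.

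Other genes of the pathway, from lists of textbook roles, were examined beside the members. Of 64 such genes 63 were in the table and tested, and DESeq2 called 3, or 4.76% against 2.1% of all genes, with 2 higher and 1 lower. All 63 had an adjusted p and 4 had a mean under 100 normalized counts. Of the 19925 genes tested in all, 3870 had no adjusted p and 6490 had such a mean, so the shares compare genes of unlike level. With edgeR 0 were called, 9 having an unadjusted p under 0.05 and 0.135 being the lowest adjusted p. The IC values lay apart from vehicle for 18 of the 63 (28.6%, against 15.8% of all genes), 8 above and 10 below. In the list of Wnt secretion and surface genes, 9 of 10 had a negative log2 fold change, with a median of −0.15, and 1 was called; of all tested genes 50.4% had a negative log2 fold change. Gpc3 (chromosome X, 52272426 to 52613950), a glypican that holds Wnt and other growth factors at the cell surface, had 14591, 12253 and 12612 normalized counts after IC and 17615, 14739 and 17171 after vehicle. The highest IC value lay just under the lowest vehicle value, and the log2 fold change was −0.33 (SE 0.095, adjusted p 0.0271 by DESeq2), a call kept in 2 of the 6 fits without 1 library.

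In the beta-catenin core, 1 of 27 genes was called. Gsk3a (chromosome 7, 25228258 to 25237851), a kinase that marks beta-catenin for degradation, had 6399, 6773 and 6107 normalized counts after IC and 5552, 4700.3 and 5409.5 after vehicle. IC libraries were all higher, with a log2 fold change of 0.30 (SE 0.092, adjusted p 0.0451 by DESeq2), and the call was kept in 1 of the 6 fits without 1 library. Ctnnb1, the gene of beta-catenin itself, had a log2 fold change of 0.02 with a 95% interval of −0.12 to 0.16.

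Among 11 tested beta-catenin target genes DESeq2 called Myc (chromosome 15, 61985391 to 61990374), a growth regulator that many other signals also induce. It had 12718, 12132 and 13939.8 normalized counts after IC and 10050.1, 10900.5 and 10046 after vehicle. The groups did not overlap, and the log2 fold change was 0.32 (SE 0.082, adjusted p 0.00591 by DESeq2), the adjusted p being 0.0834 without vehicle replicate 3. The other 10 target genes were not called, Ccnd1 having a log2 fold change of −0.14 (−0.36 to 0.07). Of the 15 genes of the planar polarity branch, which sets cell orientation, DESeq2 called 0, and the lowest adjusted p was that of Dact2 (0.0635, log2 fold change −0.39).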

How the data were processed

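Total RNA from sorted synovial fibroblasts was sequenced in 6 libraries, 3 IC and 3 vehicle, grouped by the sample labels. Per the submitters' processing notes and the study's methods, the authors trimmed reads with Trim Galore, aligned them to mm10 with HISAT2 and counted them with featureCounts, and the deposited values are raw counts per gene. Versions, annotation and strand setting are not given in the sources used here, so reads of genes that overlap on opposite strands cannot be told apart. Besides Wnt5a and Sfrp2, such exon overlaps were found for Notum (29.4% and 8.72% of its exon bases), Fzd5 (17.8%) and Rspo3 (13.1%). Smaller ones were found for Wnt11 (8.8%), Wnt7b (6.61%), Axin2 (3.8%) and Fzd6 (3.15%). The labels and the methods name different library kits. The methods state that sva removed batch effects, without details, and the labels give no batch.

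The test covered genes reaching 10 counts in 3 or more libraries (19925 of 24348; the other 4423 held 0.0429% of counts) with the Wald test of DESeq2 1.42.0 in R 4.3.3, treatment being the only term, and p-values were adjusted over all genes by Benjamini-Hochberg. DESeq2 gave 3870 tested genes no adjusted p. Fold changes are unshrunken, and 95% intervals come from the standard error. Lengths are exon unions of GENCODE M21 genes on GRCm38. The members and lists were chosen with earlier results of these data known. Values in every library are given for members that were called, members with a mean of at least 100 normalized counts and no overlap between groups, and the 2 members of each role highest per kilobase. Alternatives were edgeR 4.0.16, limma-voom (limma 3.58.1), factors by TMM or total count, testing without the count filter or above a mean of 100, independent filtering off, a replicate block, 1 surrogate variable (sva 3.50.0) and each library left out. The tests were checked on simulated counts.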

Additional observations from a re-analysis of the deposited data

How the results depend on the processing

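All 4 called members kept their direction in every alternative, and the choice of test changed most calls: edgeR called 0 members lower and limma-voom 0, against 4. The same tests called 0 and 0 other pathway genes higher (against 2) and lower (against 1), and 37 and 62 of all genes against 419. Leaving out 1 library gave 3 to 5 members lower and 0 to 3 higher, 0 to 3 other pathway genes higher and 0 to 3 lower, and 281 to 677 of all genes. The 677 came without vehicle replicate 1, where 8 members were called: Wnt5a, Sfrp5, Frzb, Fzd4 and Sfrp1 lower, and Wnt9a, Sostdc1 and Rnf43 higher. Other pathway genes called higher fell to 1 with total-count scaling, with independent filtering off, with the replicate block and with 1 surrogate variable, and those called lower rose to 2 with total-count scaling and with a mean of at least 100. With the replicate block 2 members were called, Wnt5a and Sfrp5, and 320 genes in all. The deviations of same-numbered libraries from their group means correlated at −0.0918, −0.164 and 0.025 over 13435 genes. With 3 libraries per group these values cannot tell whether same-numbered libraries were collected or processed together. In 4 genes fold changes near 0 turned sign: Lgr4 was −0.0588 and Sfrp4 0.0590 with 1 surrogate variable, Sfrp4 was 0.000501 with total-count scaling, and without 1 library Lgr4 ran from −0.0655 to 0.133, Ryk from −0.0341 to 0.0878, Sfrp2 from −0.0682 to 0.0849 and Sfrp4 from −0.100 to 0.0881. Over the named genes and their alternatives, 317 values kept direction and call status, 40 lost the call, 3 gained it and 14 turned sign. Most named genes were not called in the reported fit, and for these the same status means staying uncalled. All 40 losses fell on called genes. Wnt4 lost the call in 12 of 14 alternatives, Gsk3a in 11 of 15 and Gpc3 in 6 of 15. Frzb lost it in 4 of 15, Myc in 3, and Sfrp5 and Wnt5a in 2 each. Without IC replicate 1 Wnt1 was also called lower, and without IC replicate 3 Fzd10. Wnt4 had no value with a mean of at least 100. The causes were not tested. Depth limits statements on the 11 tested members with means under 100.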
